A study of Rattus norvegicus with 90 samples.

Results

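Liver and kidney were compared in rats that received no thioacetamide. The libraries were those labelled vehicle, with both collection times pooled, which gave 9 liver and 10 kidney libraries out of the 90 in the series. A further vehicle liver library, MS-1, was left out because it held nearly the same counts as MS-9, a liver library of the low dose. The comparison used the rows of the deposited tables that carry an Ensembl rat transcript identifier, which are 40071 of 65166 targets.

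All rats were male Sprague-Dawley rats bought at 10 weeks of age, each with a catheter placed in a neck vein a week before the study. The vehicle was saline at 3 ml/kg given into the abdomen, and organs were taken 8 or 24 h later, in both cases in the late afternoon and after 8 h without food. At 8 h there were 5 liver and 5 kidney libraries, and at 24 h there were 4 liver and 5 kidney libraries. Whole kidneys were powdered before RNA was isolated and livers were not, so organ and handling cannot be told apart. The labels do not say which liver and which kidney came from the same rat, and p-values were computed as if all libraries were independent.

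The liver consists mostly of hepatocytes, which release plasma proteins and bile, store and produce glucose, and convert ammonia, hormones, and drugs. The kidney filters blood in its glomeruli and returns water, salts, sugars, and amino acids to the blood along tubule segments that are each lined by different epithelial cells. The organs share some tasks, among them glucose production and drug metabolism. These are bulk tissue libraries, in which fewer cells of a type and less RNA per cell cannot be told apart.

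Total estimated counts ranged from 20516138 to 32444050 in liver (median 25980133) and from 20531004 to 30098569 in kidney (median 24360647), and the ranges overlapped. Genomic intervals, the other kind of target in the tables, took from 4.08% to 25.0% of a liver library's counts and from 8.05% to 19.5% of a kidney library's. The liver libraries MS-16, MS-19, and MS-21 were the ones above 20% and also stood apart in the results on concentration below. The files do not pair transcripts with genes, so the organ labels could not be checked against marker genes and transcripts are given by identifier. The labels could be checked by likeness. Across the 40071 transcripts, the Pearson correlation of log2(TPM + 1) was 0.961 to 0.980 between liver libraries, 0.941 to 0.982 between kidney libraries, and 0.775 to 0.813 between a liver and a kidney library. Every library was therefore closer to all libraries of its own organ than to any of the other. TPM is the abundance per target length, scaled to the same total in every library. The kidney library MS-100 gave the lower end of the kidney range, and the other 9 correlated at 0.958 to 0.982.

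On the TPM scale, the kidney had more transcripts above a fixed limit, and the liver held a larger part of its TPM in a smaller set. TPM is relative, so the same limit need not mark the same amount of RNA in both organs. In liver, the number of transcripts with a TPM of at least 1 had its lowest value at 12257, its median at 12859, and its highest at 13590. In kidney, the lowest was 16081, the median 16672, and the highest 17047. The groups did not overlap, with means of 12999 ± 455 (SD, n = 9) in liver and 16611 ± 310 (SD, n = 10) in kidney. The difference, liver minus kidney, was -3613 transcripts and had a two-sided exact permutation p of 2.17e-05, the smallest the design can give, and an adjusted p of 7.58e-05 over 7 such measures.

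The number of transcripts needed to reach 90% of a library's transcript TPM was 1673 ± 349 in liver (SD, n = 9, range 1225 to 2093) and 3712 ± 249 in kidney (SD, n = 10, range 3315 to 4060). These groups did not overlap either (exact permutation p = 2.17e-05). The 100 most abundant transcripts of each library held 59.7% ± 6.11 of the TPM in liver (SD, n = 9) and 51% ± 4.14 in kidney (SD, n = 10), with an adjusted exact permutation p of 0.0049. The single most abundant transcript held 5.81% ± 1.66 in liver and 3.76% ± 0.675 in kidney, with an adjusted exact permutation p of 0.00542 for the same libraries. On the last 2 measures the organs overlapped in range.

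For the 10 most abundant transcripts, the result depended on the measure. The 10 most abundant transcripts of each library held 23.2% ± 3.91 in liver (SD, n = 9, range 19.8% to 29.5%) and 24.2% ± 2.99 in kidney (SD, n = 10, range 19.6% to 29.3%), with an exact permutation p of 0.521. As a share of estimated counts, which are not divided by length, the 10 most abundant held more in liver, by 8.10 percentage points (exact permutation p = 2.17e-05). Within liver, the highest shares belonged to MS-16 (26.8%), MS-19 (28.5%), and MS-21 (29.5%), the same libraries that had the most counts on intervals. In those libraries, transcripts shorter than 200 bases held from 29.5% to 30.6% of the TPM, and in the other 6 liver libraries from 5.67% to 12.03%. Several targets of 49 bases had the same values in every library, and each could count in this measure. Each had 26263, 25629, and 26995 TPM in MS-16, MS-19, and MS-21, in that order. In the other 6 liver libraries each had 2692 to 9247 TPM, and in kidney 2585 to 23659 TPM. The part of short targets in this measure was not tested apart from leaving them out. When these 3 liver libraries were left out, the difference, liver minus kidney, was -3.56 percentage points (exact permutation p = 0.00974), and when targets shorter than 200 bases were left out it was -3.33 (exact permutation p = 0.00803). These 2 settings on TPM, with kidney higher, were chosen after seeing the data. Short targets themselves held 16.3% ± 10.5 of the TPM in liver and 14.2% ± 6.85 in kidney, and no difference was detected (exact permutation p = 0.611).

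**Figure D1:**
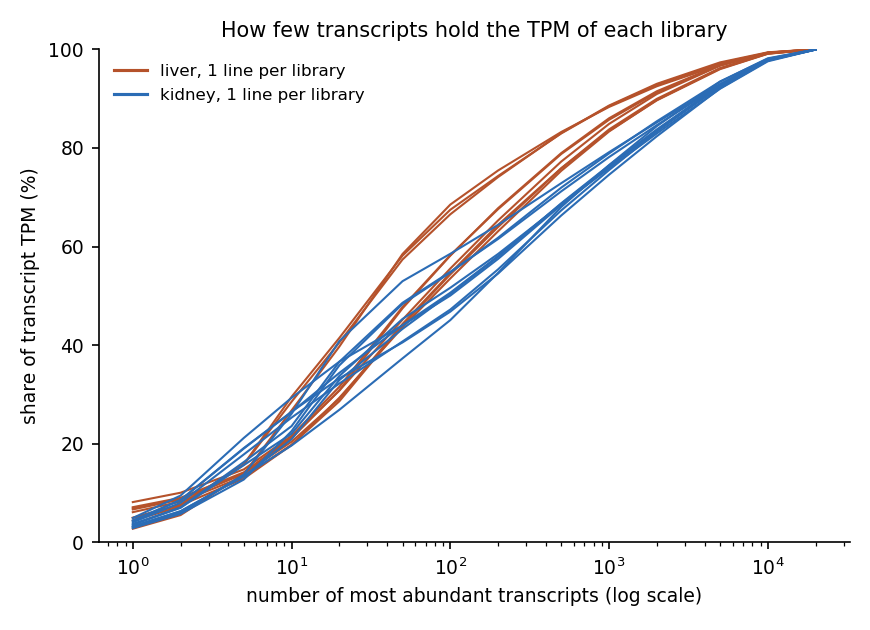
Share of the transcript TPM (%, vertical axis) held by the most abundant transcripts of each vehicle library (number of transcripts, log scale), with 1 line per library for 9 liver and 10 kidney libraries. The organs mix at 10 transcripts, and by 1000 transcripts every liver line is above every kidney line. The 3 liver lines that stand apart at 100 transcripts are MS-16, MS-19, and MS-21.

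The organs were then compared transcript by transcript. Of the transcripts, 31535 had a value above 0 in at least 1 of the 19 libraries, and 18280 passed the filter on low counts and were tested. A transcript enters the test if it has enough counts in at least as many libraries, of either organ, as the smaller organ group holds. Transcripts used by 1 organ alone are thus included, and those that passed through 1 organ alone are more likely to differ by this selection. A transcript was called when edgeR's quasi-likelihood test, after TMM scaling, gave an adjusted p at or below 0.01 and the organs differed at least 1.82-fold, or 0.60 on the natural-log scale. TMM scaling sets library factors so that the bulk of transcripts shows no difference.

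A large part of the transcripts tested differed between the organs. Of the 18280 tested, 7976 (43.6%) were called, 3276 (17.9%) as higher in liver and 4700 (25.7%) as higher in kidney. Among those higher in liver, 2603 (79.5%) had every liver library above every kidney library, and among those higher in kidney, 3638 (77.4%) had every kidney library above every liver library. Such a separation was seen in 3137 (17.2%) and 4031 (22.1%) of all transcripts tested, respectively. Of the 10304 transcripts not called, 927 were separated in 1 direction or the other.

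Differences in favour of kidney were more numerous and had the larger median fold. The median fold was 3.61 for the transcripts higher in liver and 5.39 for those higher in kidney. Differences of at least 10-fold were found in 869 (26.5%) of the transcripts higher in liver and in 1615 (34.4%) of those higher in kidney. Differences of at least 100-fold were found in 374 (11.4%) and 380 (8.09%), respectively. In 34 of the liver calls and 206 of the kidney calls, the other organ had a count of 0 in every library, and such transcripts entered these numbers with a lower bound for their fold, taken against 3 counts in each library of the other organ. That floor was 0.0974 CPM (counts scaled to a fixed library total) in kidney and 0.199 CPM in liver. The bound was under 100-fold for 18 of the 34 and 188 of the 206, so the numbers at 100-fold are minimums, and more so for kidney.

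**Figure D2:**
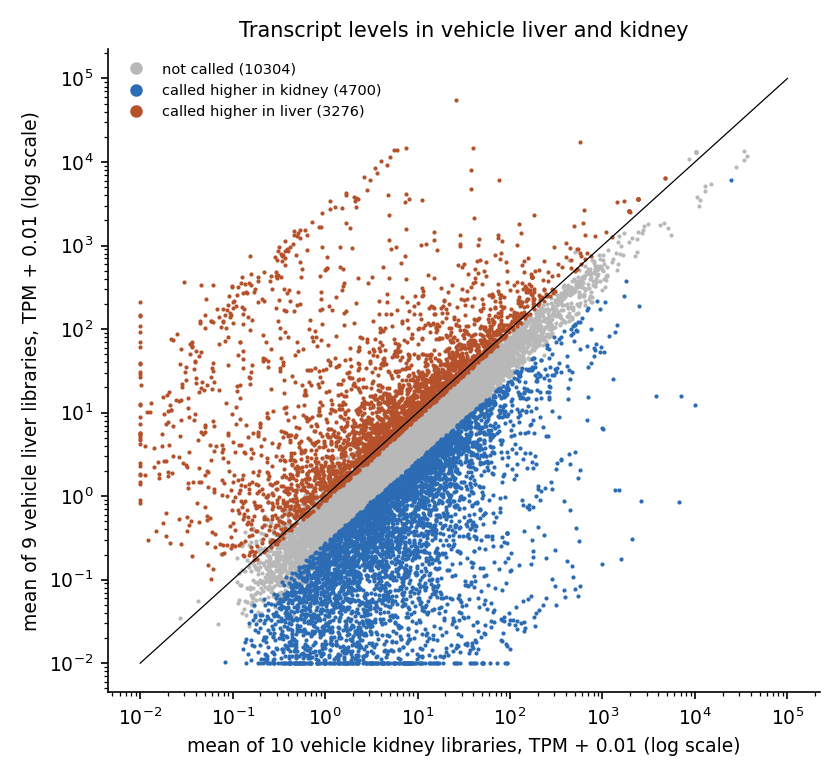
Mean TPM + 0.01 of each tested transcript in 10 vehicle kidney libraries (horizontal, log scale) and 9 vehicle liver libraries (vertical, log scale), with colours for the calls after TMM scaling and a line where both means are equal. The 10304 uncalled transcripts lie mostly below that line, and the points on the left and lower edges are transcripts at or near 0 in 1 organ.

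The 2 sets of transcripts differed in weight. Transcripts called higher in liver held 58.5% ± 4.70 of the transcript TPM of the liver libraries (SD, n = 9, range 51.5% to 64.7%) and 11.1% ± 1.76 of that of the kidney libraries (SD, n = 10, range 8.86% to 13.4%). Transcripts called higher in kidney held 20.1% ± 1.91 of the kidney TPM (SD, n = 10, range 16.9% to 22.6%) and 1.93% ± 0.369 of the liver TPM (SD, n = 9, range 1.34% to 2.38%). Thus, for calls after TMM, the larger set, that of kidney, was the smaller part of its organ's TPM. This contrast depends on which abundant transcripts are called. Of the 10 most abundant kidney transcripts, 1 was called after TMM, and all 10 were called when libraries were scaled by total counts alone. The shares were not computed for the calls from total counts. These shares describe sets that were chosen on the same values.

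After TMM, the direction in which most calls went changed with abundance. Transcripts were placed in classes by the larger of their organ means in TPM. Among the 2095 with less than 1 TPM, 239 (11.4%) were called higher in liver and 669 (31.9%) higher in kidney. Among the 8385 with 1 to 10 TPM, the numbers were 1224 (14.6%) and 2350 (28.03%). At 10 to 100 TPM the directions were close, with 1285 (20.05%) higher in liver and 1421 (22.2%) higher in kidney among 6410. Above that, liver had more calls than kidney after TMM. Of 1222 transcripts with 100 to 1000 TPM, 436 (35.7%) were higher in liver and 240 (19.6%) higher in kidney. Of the 168 with at least 1000 TPM, 92 (54.8%) were higher in liver and 20 (11.9%) higher in kidney. The filter on low counts acted before TMM, on counts scaled by library totals alone. How many transcripts of each class passed it through 1 organ alone was not counted. The part of the filter in the low classes was therefore not tested.

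How the libraries were scaled decided how the calls split between the organs. TMM gave liver libraries factors of 0.605 to 0.710 and kidney libraries factors of 1.40 to 1.55. The median log2 difference, liver minus kidney, over all tested transcripts was -0.06 after TMM and -1.20 when libraries were scaled by their total counts alone, a shift of 1.14. With total counts, 1409 transcripts (7.71%) were called higher in liver and 11074 (60.6%) higher in kidney, so that the liver's part of all calls was 11.3%, compared with 41.1% after TMM.

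The shift removed or added calls and reversed none. All 4700 transcripts called higher in kidney after TMM were also called higher in kidney with total counts. Of the 3276 called higher in liver, 1409 were called so under both scalings and 1867 were called in neither direction with total counts. With total counts, kidney had more calls than liver in every abundance class below 1000 TPM, with 3855 compared with 529 at 10 to 100 TPM and 567 compared with 306 at 100 to 1000 TPM. Among the transcripts with at least 1000 TPM, liver had 74 calls and kidney 55. The tables give relative abundance only, and the amount of RNA per cell or per organ was not measured. All fold changes below are given after TMM, with the value from total counts, where computed, beside those that depend on it.

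**Figure D3:**
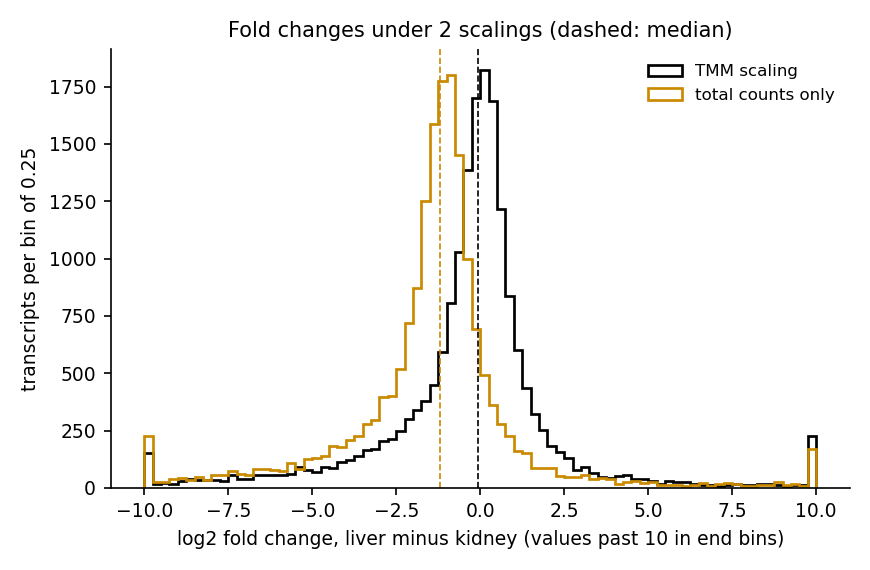
Number of the 18280 tested transcripts per bin of 0.25 in log2 fold change, liver minus kidney, for TMM scaling and for total counts alone, with dashed lines at the medians of -0.06 and -1.20. The distributions have a similar shape and are offset by 1.14, and values beyond 10 in either direction are collected in the end bins.

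The most abundant transcript of the liver was ENSRNOT00000003921, of 2069 bases. In liver its TPM was 20161 in the lowest library, 60314 in the median, and 80180 in the highest. In kidney it was 0.977, 11.4, and 121. The organs did not overlap, and the lowest liver values were those of MS-16, MS-21, and MS-19. In kidney the levels were far more scattered than in liver, with 121 TPM in MS-31 and no more than 45.3 in any other kidney library. The means were 55923 ± 18147 TPM in liver (SD, n = 9) and 26.3 ± 37.4 in kidney (SD, n = 10), and in the 10 vehicle heart libraries the mean was 2.51 TPM. The log2 difference was 12.13 with a standard error of 1.12 and an adjusted p of 3.54e-09 by edgeR, and it was 12.51 at 8 h and 11.84 at 24 h.

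Among the 10 most abundant transcripts of the liver, 6 were called higher in liver and 4 were not called. Of those 4, 3 were targets of 49 bases with the same values in every library, 13206 TPM on average in liver and 10316 in kidney, and these cannot be told apart by the counting. Further targets had these same values, so which of them entered the 10 was arbitrary. The remaining one of the 4 was ENSRNOT00000050156, of 1545 bases, which was the most abundant of all transcripts not called when ranked by the smaller of its organ means. Its TPM was 8427, 15211, and 16543 in liver (lowest, median, and highest library) and 24342, 32712, and 44759 in kidney. On the TPM scale the organs were thus separated, with kidney higher. After TMM the log2 difference was -0.29 with a standard error of 0.177 (adjusted p = 0.154 by edgeR), whereas with total counts it was -1.43 and the transcript was called higher in kidney. Its mean in heart was higher still, at 63427 TPM.

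The calls among the most abundant transcripts of the kidney also depended on the scaling. Of its 10 most abundant, with kidney means of 11062 to 36443 TPM and liver means of 3003 to 13376 TPM, 1 was called higher in kidney and 9 were not called after TMM. All 10 were called higher in kidney with total counts. In all 10 the mean in heart exceeded the mean in kidney. By mean TPM, kidney was thus the highest of the 3 organs for none of its 10 leading transcripts, whereas liver was the highest of the 3 for 9 of its 10. Of those 9, 6 were called higher in liver. The other 3 were the targets of 49 bases that were not called. They share 1 set of values, so this tally counts 1 measurement 3 times. Their liver range of 2692 to 26995 TPM overlapped their kidney range of 2585 to 23659 TPM.

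The most abundant kidney transcript that was nearly absent from the liver was ENSRNOT00000079830, of 1468 bases, which was chosen after its values were seen. Its TPM was 6782 in the lowest kidney library, 10130 in the median, and 13281 in the highest. In liver it was 7.97, 10.97, and 22.1. Unlike the leading liver transcript in kidney, it had a low and even level in the other organ. The means were 10104 ± 2353 TPM in kidney (SD, n = 10) and 12.3 ± 4.64 in liver (SD, n = 9), and the heart had an intermediate mean of 305.2 ± 64.7 TPM (SD, n = 10). The log2 difference was -8.64 with a standard error of 0.264 and an adjusted p of 3.89e-17 by edgeR, and it was -8.75 at 8 h and -8.54 at 24 h.

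Among calls with at least 10 TPM and no overlap, the transcript with the largest fitted fold in each direction was of moderate abundance. It had no counts in the other organ after rounding. In liver this was ENSRNOT00000044183, of 2162 bases, with 58.7, 91.1, and 122 TPM in the lowest, median, and highest liver library and 0 in all 10 kidney libraries. Its scaled mean of 264.1 CPM in liver was at least 2711-fold higher than the level that 3 counts in each kidney library would give (adjusted p = 5.13e-14 by edgeR). In kidney it was ENSRNOT00000008857, of 4635 bases, with 38.9, 75.9, and 94.2 TPM, the lowest value being that of MS-100. Its estimated count rounded to 0 in all 9 liver libraries. The kidney mean of 224.9 CPM was at least 1132-fold higher than 3 counts in each liver library would give (adjusted p = 6.66e-14 by edgeR).

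**Figure D4:**
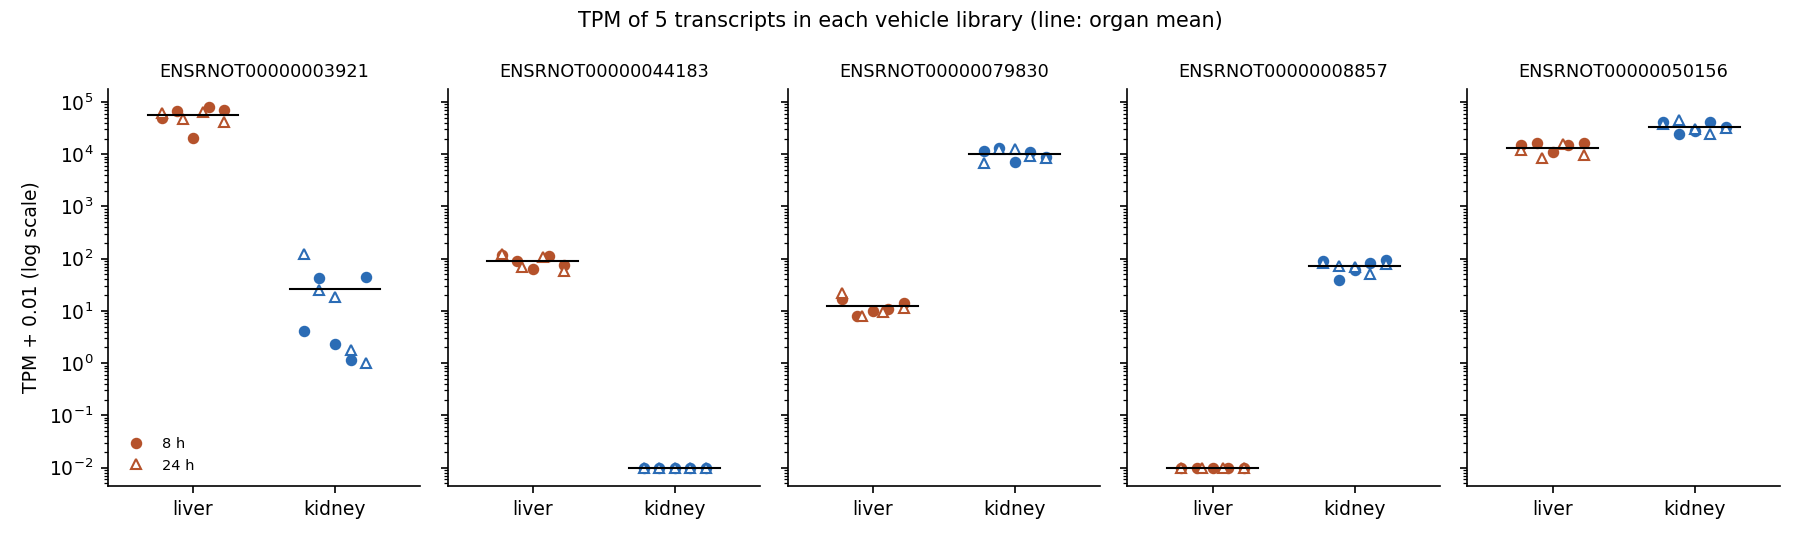
TPM + 0.01 (log scale) of 5 transcripts in each of the 9 liver and 10 kidney vehicle libraries, with filled circles for 8 h, open triangles for 24 h, and a line at the organ mean. ENSRNOT00000003921 and ENSRNOT00000044183 are higher in liver, ENSRNOT00000079830 and ENSRNOT00000008857 higher in kidney, and ENSRNOT00000050156 was not called after TMM. Values at 0.01 are libraries at or next to 0, and the kidney values of ENSRNOT00000003921 extend from 0.977 to 121 TPM.

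Transcripts present in 1 organ and close to absent in the other were then counted. A transcript was termed restricted to an organ if its mean there was at least 1 TPM, it was detected in every library of that organ, and its mean in the other organ was under 1% of that level. On the TPM scale, the kidney had 738 such transcripts and the liver had 374. When the organs were compared on counts after TMM instead, a setting chosen after seeing the data, the numbers were 540 and 424. In liver 299 of the 374 had a mean of at least 10 TPM, 185 of at least 100, and 50 of at least 1000. In kidney 360 of the 738 had at least 10 TPM, 80 at least 100, and 10 at least 1000. The kidney list was thus the longer one from 10 TPM upwards and the shorter one from 100 TPM upwards. The median level was 95.6 TPM for the liver list and 9.13 TPM for the kidney list, and the lists held 33.98% of the liver TPM and 7.12% of the kidney TPM.

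The heart, which the rule did not use, set the lists further apart. Of the 374 transcripts restricted to liver relative to kidney, 344 (92.0%) were also under 1% of the liver mean in the vehicle heart libraries. Of the 738 restricted to kidney relative to liver, 406 (55.0%) were under 1% of the kidney mean in heart. The heart mean reached at least 10% of the home organ's mean for 7 transcripts of the liver list and 152 of the kidney list, and it was at least as high as in the home organ for 4 and 49. By these limits, most liver-restricted transcripts were near absent from both other organs, and part of the kidney-restricted ones were also present in heart. The lists were not matched for abundance, with median levels of 95.6 TPM for liver and 9.13 TPM for kidney. A limit of 1% is therefore a lower level in TPM for the typical kidney transcript.

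A low level of the other organ's transcripts was visible in some libraries and differed between them. For the 50 most abundant restricted transcripts of each organ with a length of at least 200 bases, the level in each library of the other organ was expressed as a percentage of the mean in the home organ, and the median over the 50 was taken. For the liver list, the kidney libraries ranged from 0.00265% in MS-50 to 0.205% in MS-31, a ratio of 77.2. MS-31 had the highest level among the kidney libraries for 42 of the 50 transcripts. MS-59 (0.0859%), MS-100 (0.0758%), and MS-34 (0.0614%) followed, and MS-103 and MS-40 were lower at 0.0306% and 0.0166%. The remaining 4 kidney libraries were all below 0.005%. In the 10 vehicle heart libraries the same list lay between 0 and 0.0163%.

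For the kidney list, the liver libraries were more alike, from 0.0551% in MS-19 to 0.123% in MS-28. They differed in how many of the 50 were at 0, which was 0 in MS-28, 1 in MS-29, and 2 in MS-21, but 14 to 16 in the other 6 liver libraries. In heart, the median over the kidney list ranged from 0.0217% to 0.301%, with the highest level for 37 of the 50 transcripts in MS-81. Summed over the 50, however, the heart libraries held 14.2% to 17.9% of the kidney level, and the liver libraries 0.102% to 0.200%. The median thus hides members of the kidney list with a high level in heart. The source of these levels was not tested. Without MS-31, 375 transcripts were restricted to liver and 740 to kidney, and 3197 and 4539 were called higher in liver and in kidney.

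**Figure D5:**
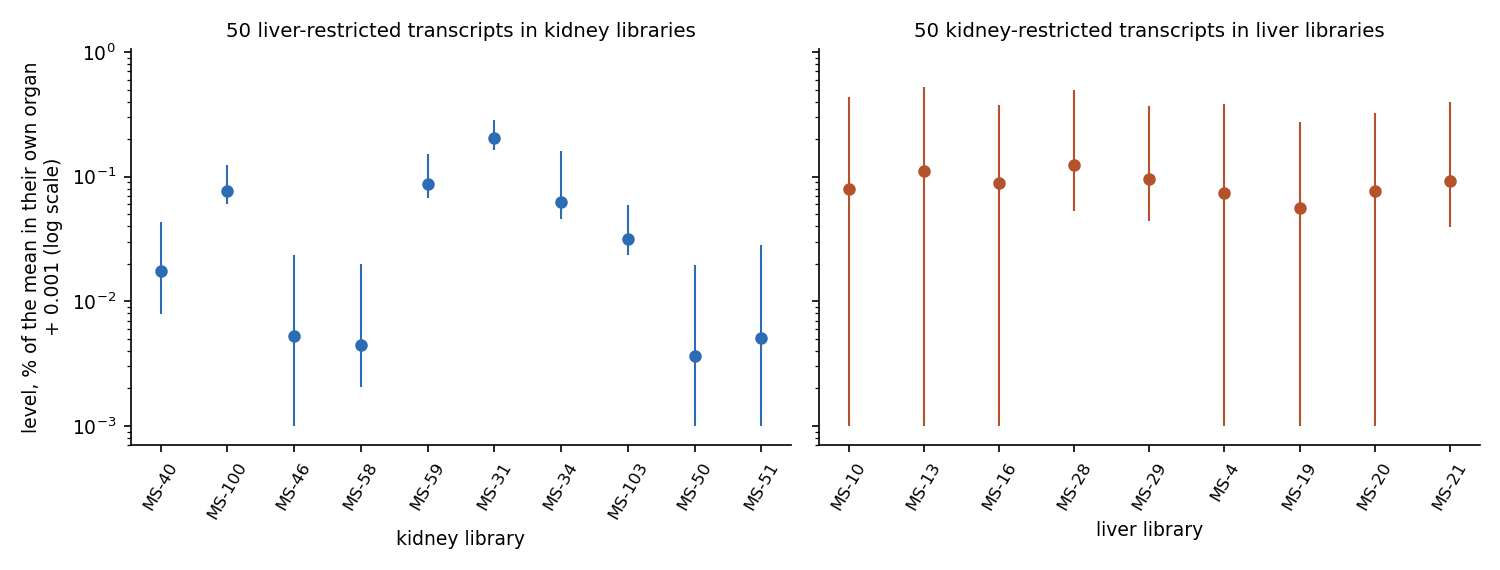
Level of the 50 most abundant liver-restricted transcripts in each vehicle kidney library (left) and of the 50 most abundant kidney-restricted transcripts in each vehicle liver library (right), as a percentage of the mean in their own organ + 0.001 (log scale). Points are medians over the 50 transcripts and bars extend from the first to the third quartile. MS-31 is highest on the left with a median of 0.205%, and the liver libraries on the right have medians of 0.0551% to 0.123%.

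The difference between the organs was close to the same at both collection times. Over 17967 transcripts tested at both times, the Spearman correlation of the log2 differences at 8 h and 24 h was 0.949, and the median absolute difference between them was 0.198. At 8 h 6906 of these transcripts were called and at 24 h 7048, and 6186 were called at both times in favour of the same organ, which is 89.6% of the 8 h calls and 87.8% of the 24 h calls. None was called in opposite directions. The times used different libraries, and 6900 of the 6906 calls at 8 h had the same sign at 24 h.

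A change of the organ difference between 8 and 24 h was not detected for any transcript by edgeR. In the test of the interaction between organ and time, 0 of 18280 transcripts (0.0%) had an adjusted p of no more than 0.01, and 644 had an unadjusted p under 0.05. DESeq2 called 2, with 740 at an unadjusted p under 0.05. The smallest adjusted p by edgeR was 0.0871, shared by 2 transcripts. In one, with less than 0.5 TPM in every liver library, the count was 0 in all 4 liver libraries at 24 h. In the other, the log2 difference after TMM was -0.71 at 8 h and 0.71 at 24 h. It had 4.01 to 6.86 TPM in liver at 8 h and 7.96 to 10.8 at 24 h, and 16.1 to 20.6 TPM in kidney at 8 h and 9.71 to 15.7 at 24 h. In neither organ did the values at the 2 times overlap, and the organs moved in opposite directions. On the TPM scale kidney was above liver at 8 h, and at 24 h the ranges overlapped with both ends higher in kidney. The positive log2 difference at 24 h thus depended on the scaling, and its value with total counts was not computed. Without liver library MS-19 edgeR called 1 transcript, and without MS-16, MS-19, and MS-21 together it called 4.

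The same contrast was made in the treated rats, whose libraries were not used above. After the low dose of thioacetamide, 18609 transcripts were tested in 9 liver and 10 kidney libraries, MS-9 being left out, and 3231 were called higher in liver and 4558 higher in kidney (41.9% of those tested). Of 7788 vehicle calls that could be tested, 7683 had the same direction, 6417 (82.4%) were called for the same organ, and 12 were called for the opposite organ. After the high dose, 3478 and 4293 of 18391 transcripts were called (42.3%). Of 7564 vehicle calls that could be tested, 7184 had the same direction, 5598 (74.01%) were called for the same organ, and 48 for the opposite organ. Whether the 2 doses differ in this share was not tested.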

How the data were processed

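RNA-seq was performed by the authors on poly-A-enriched libraries, and read pairs were pseudo-aligned with kallisto 0.42.2 to the Ensembl rat transcriptome (Rnor 6.0), as the paper and the submitters' processing notes give it. The deposited table of each library holds, for every target, an estimated count that is not normalized, its TPM, and its length. The same 5737 short transcripts (under 200 bases) and 25095 genomic intervals are listed in every library. In 425 groups, 989 transcripts have the same TPM in all 19 libraries and cannot be told apart.

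Estimated counts of transcripts were rounded and tested in R 4.3.3 with edgeR 4.0.16 (default filter by organ, TMM, quasi-likelihood test, Benjamini-Hochberg adjustment), without covariates. The paper gives no direct test of liver against kidney in vehicle rats, and its 2 limits were kept. DESeq2 1.42.0 and limma 3.58.1 were alternatives. Values per library were compared by two-sided exact permutation tests with Python 3.11.15, scipy 1.17.1, numpy 2.4.6, pandas 2.3.3, and matplotlib 3.10.9 for plots. Scripts were tested on simulated data. Levels were described on the TPM scale and fold changes on counts.

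MS-1 was left out because it and MS-9 were within 1 count of each other for 99.96% of 15797 transcripts (those with 10 or more counts in either). The highest share in any other pair of libraries of the series was 3.82%, and 3.69% among the 19. The labels do not name the animals, and libraries of a group were taken as separate rats, as the paper describes its groups.

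The comparison, the lists, and the rules were chosen with earlier results of these data known. The rule for naming took the 10 most abundant transcripts of each organ, the 10 largest fitted folds in each direction among calls with at least 10 TPM and no overlap, the 10 most abundant not called, and the 5 smallest interaction p-values. Of these only a few identifiers are printed. No table used here pairs the identifiers with gene names or sequences, so the gene and marker lists that had been set out, and sums per gene, were not analysed here.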

Additional observations from a re-analysis of the deposited data

Results flagged for a closer look

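Of 24 groups of values by organ, 2 had a highest or lowest library whose gap to the next, divided by the group's range, was above Dixon's 95% critical value. Chance gives about 1 in 20 groups, or 1.2 of 24. Both were in the kidney library MS-31, collected at 24 h. Its level of ENSRNOT00000003921, the most abundant liver transcript, was 121 TPM, and the other 9 kidney libraries had 0.977 to 45.3 TPM. Its median level of the 50 most abundant liver-restricted transcripts was 0.205% of the liver mean, and the other kidney libraries had 0.00265% to 0.0859%. The measurements share transcripts, since ENSRNOT00000003921 belongs to that list. The source of the signal was not tested.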

How the results depend on the processing

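The counts of transcripts higher in liver (3276) and in kidney (4700) depended most on the scaling. They were 1409 and 11074 with total counts alone (12483 in all), 1275 and 7825 with limma on log2(TPM + 1), and 1474 and 10352 with limma on log2(TPM + 0.1), so that liver had 11.3%, 14.01%, and 12.5% of the calls in place of 41.1%. Without a limit on the fold change, 5219 were higher in liver, and with an absolute log2 fold change of at least 2, 1504 were higher in liver and 2879 in kidney (4383 in all). Of 20 alternatives, 15 kept the liver count within 1.5 times, 16 the kidney count, and 18 their sum. Among these, DESeq2 gave 3253 and 4862, and the liver library MS-1 put back gave 2900 and 4770. Leaving out each library in turn gave 3188 to 3316 higher in liver, 4476 to 4901 higher in kidney, and 7665 to 8145 in all. The interaction of organ and time had 0 to 1 calls without each library, 2 with DESeq2, and 4 without the 3 liver libraries with over 20% of their counts on intervals.

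The share of TPM in the 10 most abundant transcripts, 1.03 percentage points lower in liver, was the least stable measure. The difference, liver minus kidney, was 0.416 at 24 h alone (exact permutation p = 0.873), 8.10 as a share of estimated counts (exact permutation p = 2.17e-05), and 8.66 for the 100 most abundant (exact permutation p = 0.0021). It was -3.33 without targets shorter than 200 bases, -3.64 with 1 list per organ (exact permutation p = 0.0222), and -3.56 without the 3 liver libraries, and between -1.82 and -0.46 without each library. The number of transcripts with a TPM of at least 1 kept its direction and significance in the 7 alternatives run, all of them on the TPM scale. The list restricted to liver (374) had 205 transcripts with the other organ under 0.1% and 46 with the other organ at 0 in every library. The list restricted to kidney (738) had 330 and 161, respectively, and 360 with a minimum of 10 TPM.

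Alternatives chosen after seeing the data were those on short targets, counts on intervals (their share as a term, or libraries left out by it), 1 list per organ, lists restricted on counts after TMM, and a pairing of libraries by number. Sums of counts per gene were not run. The labels do not say which liver and kidney came from 1 rat, but the 22 liver libraries of the series with a kidney library numbered 30 higher all match it in time and dose. Among the vehicle libraries this gives 7 pairs. Over the deviations from the means of organ and time, the correlation within these pairs was -0.06 to 0.32 (median 0.07) and over 0.1 in 3 of 7. For other numbers of the same time it was -0.27 to 0.10 (median -0.04). Of the 7 liver libraries, 4 correlated best with their own number at the same time. The median was thus higher within the pairs, but the ranges overlapped and the labels do not settle the pairing. The main tests therefore used no pairing, and organs of the same rats may be related. In these 14 libraries, 3183 and 4573 transcripts were called higher in liver and kidney without the replicate block, and 3132 and 4585 with it. The level set against a count of 0 in every library, 3 counts in each, was 0.0974 CPM in kidney and 0.199 CPM in liver, which covers counting error only. It is a limit for 1 library, and zeros in all libraries together allow a lower level.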
